A study of Mus musculus with 4 samples.

Results

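The ceramide synthase family of the mouse has 6 genes, Cers1 to Cers6, all of which were among the 32479 genes measured, and they were taken by symbol. Their expression was described in single cells of the dorsal epidermis of control mice and of mice that lack Cers4 in this tissue, cell type by cell type and mouse by mouse, with the question whether other members rose where Cers4 was deleted. Ceramide synthases sit in the endoplasmic reticulum and join a fatty acid to a sphingoid base to make (dihydro)ceramide, and each enzyme prefers fatty acids of a certain length. CERS4, CERS5 and CERS6 use mostly long-chain, CERS2 very long-chain and CERS3 ultra-long-chain acyl-CoAs, while CERS1 is known from the nervous system and muscle. In skin, ceramides of the CERS3 type build the water barrier of the cornified layer, and sebaceous glands release lipids to the surface.

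Control mice were CerS4fl/flK14Cre-, that is, they carried the floxed Cers4 gene without Cre, and CerS4epi-/- mice were CerS4fl/flK14Cre+, with Cre driven by the keratin-14 promoter, which is active in basal cells of the epidermis and its appendages and thus also in the lineages these form. T cells and Langerhans cells of the epidermis are of other origin. All were C57BL/6N females at postnatal day 19 (P19), when the first hair follicles rest in telogen, and each of the 4 mice gave 1 BD Rhapsody library (n = 2 per genotype). Which exons the floxed allele loses is not given in the sources used here, so counts of Cers4 that remain in CerS4epi-/- mice are not a measure of a functional transcript.

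Library totals were 42619084 and 48497481 counts for the control and 53106317 and 39231945 for the CerS4epi-/- mice. Between 7567 and 9086 cells per mouse (34150 in all) passed limits of 1200 counts or more and of 20% mitochondrial counts or less, with medians of 3266.5 to 3884 counts per cell. The median mitochondrial share of the cells kept was 8.66% and 8.56% in control and 9.94% and 9.68% in CerS4epi-/- mice, and the mitochondrial limit removed 68 and 91 against 363 and 316 barcodes. The 2 libraries of a genotype shared 0 of these cell barcodes, where 87.1 and 77.1 would be shared by chance, whereas libraries of different genotypes shared 64 to 102, against 72.5 to 92.6 by chance. The barcodes are thus distributed as if the mice of one genotype split a single pool, and genotype and pool cannot be told apart in any comparison between genotypes. Cells were assigned by marker genes, with no ceramide synthase among them, to interfollicular epidermis (IFE) basal-like (14021 cells), differentiated-like (10072) and keratinized-like (3495) classes, upper hair follicle (uHF)-like (4366), outer bulge (OB)-like (247), inner bulge (IB)-like (138), sebaceous gland (SG)-like (73), T cell-like (442) and Langerhans cell-like (229) classes. Levels are given as CPM, the counts of a gene as a part of the counts of all genes in the cells of a class and mouse, on the usual per-million scale. The 10 genes of highest fold in a class held 1 to 7 of its own markers in all of these classes but the IFE basal-like one. That one held none and was led by basement membrane and adhesion genes such as Itga3 and Lamb3. None of these classes had more markers of another type. The same markers made the gates, so this is a description and no check of the classes. At the minimum number of markers stood 1287 of 4606 uHF-like (240 keratinized ones, not used below, included), 143 of 247 OB-like, 75 of 138 IB-like and 8 of 73 SG-like cells, and 1720 of 24093 IFE basal-like and differentiated-like cells had marker sums within a factor of 2 of each other. Doublets were not removed. The levels are not divided by gene length, so they are compared within a gene and not between genes.

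Cers4, the deleted gene, was measured first, in the class where it was highest. The SG-like cells of control mice had 639 counts from 12 cells and 94 counts from 2 cells, or 2832 and 3968 CPM. Those of CerS4epi-/- mice had 136 counts from 27 cells and 192 counts from 32 cells, or 285 and 437 CPM. The class itself differed, since the 9 genes of the SG marker list added up to 36848 and 31234 CPM in control and 21290 and 26086 CPM in CerS4epi-/- mice. The 7 genes of the uHF list added up to 1121 and 718 against 2339 and 2984 CPM in the same cells. The part of this in the Cers4 values, and in the Cers5 values of these cells given below, was not tested. The Cers4 levels of the genotypes did not overlap, and the log2 fold change was -3.08 (95% interval -3.84 to -2.32, adjusted p = 0.0173 by edgeR's quasi-likelihood test). This fit was added after the data were seen, because control mouse 2 had 2 SG-like cells, fewer than the 20 otherwise required, and it called 3 of 4553 genes (0.0659%). It was also called when each mouse was left out, with values from -3.44 to -2.79, although without control mouse 1 the control group is those 2 cells. Here and below, leaving out a mouse leaves 1 mouse of that genotype, which is assumed to vary like those of the other genotype. Cers4 was detected in 12 of 12 and 2 of 2 control SG-like cells and in 20 of 27 and 28 of 32 SG-like cells of CerS4epi-/- mice. Barcodes of at most 100 counts, taken here as free RNA, had 6.27 and 8.05 CPM of Cers4 in control and 9.42 and 11.03 CPM in CerS4epi-/- mice, all under the levels in the SG-like cells of CerS4epi-/- mice but above both control values in uHF-like cells and, in 3 of the 4 mice, above the level over all cells.

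The 6 genes lie on 5 chromosomes (GRCm39, Gencode vM39). Cers1 (chr8:70768317-70784593) and Cers4 (chr8:4542809-4581680) share chromosome 8, Cers2 is at chr3:95221790-95234060, Cers3 at chr7:66393252-66473439, Cers5 at chr15:99632477-99670783 on the minus strand and Cers6 at chr2:68691455-68944627, all but Cers5 on the plus strand. Introns were counted along with exons, and exons make up 3.70% of the 253 kb of Cers6 but 42.0% of the 12.3 kb of Cers2. Cers1 overlaps Gdf1 on the same strand and Upf1 on the other, Cers2 overlaps Setdb1 and the lncRNA 6330562C20Rik and Cers5 the lncRNA Gm17058 on the other strand. Cers5 and Cers6 also overlap lncRNA genes or unconfirmed transcripts of their own strand that were not among the genes measured. Counts of these genes are less certain, although the share of counts that are not whole, which come from reads shared between genes, was 52.6% for Cers1, 0% for Cers2 and at most 0.300% for any of the others.

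The promoters of Cers3, Cers4 and Cers5 are shown as examples that differ in their content of CpG, the dinucleotide that is methylated in mammalian DNA. The RefSeq windows run from 250 bases before to 50 bases after the annotated start, were located on GRCm39 by their exact sequence, and are printed 5′ to 3′ on the strand of the gene with each CpG in capitals. They lie at chr7:66393002-66393301 (plus strand), chr8:4543155-4543454 (plus strand) and chr15:99670347-99670646 (minus strand).
Cers3: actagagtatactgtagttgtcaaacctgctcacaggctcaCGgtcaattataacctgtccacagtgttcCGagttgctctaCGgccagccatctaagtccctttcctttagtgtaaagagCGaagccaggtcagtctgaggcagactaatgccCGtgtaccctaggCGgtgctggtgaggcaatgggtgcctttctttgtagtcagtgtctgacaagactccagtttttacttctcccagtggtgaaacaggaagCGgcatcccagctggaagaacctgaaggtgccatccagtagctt
Cers4: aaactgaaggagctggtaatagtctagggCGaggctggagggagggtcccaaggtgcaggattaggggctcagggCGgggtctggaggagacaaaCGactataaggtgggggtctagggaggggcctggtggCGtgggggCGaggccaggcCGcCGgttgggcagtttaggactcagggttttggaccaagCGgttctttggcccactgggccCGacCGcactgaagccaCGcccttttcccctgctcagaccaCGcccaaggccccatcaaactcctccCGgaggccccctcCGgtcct
Cers5: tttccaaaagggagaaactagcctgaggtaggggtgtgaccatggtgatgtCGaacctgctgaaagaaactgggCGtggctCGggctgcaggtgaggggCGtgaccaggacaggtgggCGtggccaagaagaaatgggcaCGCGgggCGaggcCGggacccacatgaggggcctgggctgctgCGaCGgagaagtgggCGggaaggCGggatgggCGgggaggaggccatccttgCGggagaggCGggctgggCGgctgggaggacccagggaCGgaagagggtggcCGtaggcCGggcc
The Cers3 window held 7 CpG, which is also the median of the 32851 promoters of the table, and 50.7% G and C, whereas the Cers4 window held 14 and the Cers5 window 20 CpG, with 64.3% and 67.7% G and C. The windows of Cers1, Cers2 and Cers6, not printed, held 22, 30 and 28 CpG, and a second window of Cers2 held 6. A search of both strands found GGGCGG in at least one window of 4 of the 6 genes (Cers4 and Cers5 among them) and in 35.7% of all promoters, CCAAT in 2 and 37.4%, CACGTG in 2 and 7.15%, and the nuclear receptor motif AGGTCA in 3 (Cers3 among them) and 16.3%. None of these motifs contains another, and a match is a description of the letters only.

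In control mice the levels of Cers2 to Cers6 differed between cell classes, and several members were present in the same class. The plot of CPM by cell class shows both. Of 33 tests of a member between a pair of classes 24 passed, 13 higher and 11 lower, read against backgrounds of 27% to 80.7% of all genes in the same pairs. These tests used all 4 mice with the mouse as a block. The order of the levels was taken from the means of the control mice, and neighbours whose 2 values overlap are given as such.

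**Figure D1:**
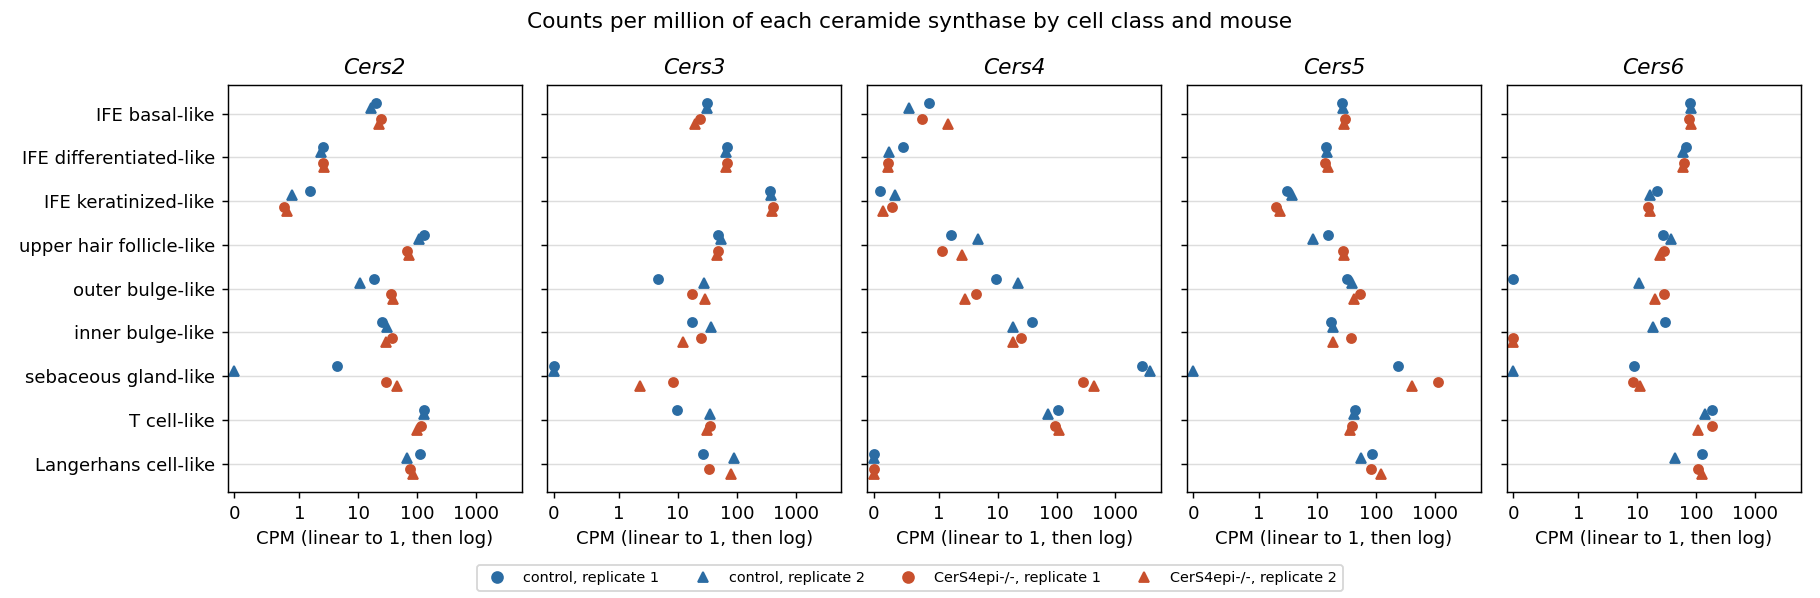
CPM of Cers2 to Cers6 in each marker-gated cell class, 1 point per mouse, on an axis that is linear to 1 CPM and logarithmic above it. Cers4 is highest in SG-like cells and next in T cell-like cells, Cers3 is highest in IFE keratinized-like cells, and Cers6 is at 80.2 and 81.5 CPM in IFE basal-like and 67.9 and 60.1 CPM in differentiated-like cells of control mice.

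Cers4 was a gene of the sebaceous gland and of T cells. Its control level was 3400 ± 803 CPM (SD, n = 2 mice, as for all control means here) in SG-like cells, 87.4 ± 24.1 in T cell-like, 28.5 ± 14.1 in IB-like, 15.5 ± 8.92 in OB-like and 3.16 ± 2.17 in uHF-like cells. With the cells of all 4 mice pooled, Cers4 was among the 10 genes with the highest fold in SG-like cells over all other classes. It was at most 0.840 CPM in every control mouse in the 3 IFE-like classes and at 0 counts in the Langerhans cell-like class, where 0 of 75 and 0 of 46 cells allow up to 13.2 and 16.8 CPM. The IB-like and OB-like ranges overlapped, as did those of the IFE differentiated-like and keratinized-like classes, while all other neighbours in this order were apart. The folds between classes were fitted over all 4 mice, so those of Cers4 include the CerS4epi-/- mice and are not control values. Against IFE basal-like cells the log2 fold change was 10.47 (9.83 to 11.11) in SG-like cells (48.3% of genes called) and 6.56 (5.79 to 7.34) in T cell-like cells (45.5%). It was 4.79 (3.50 to 6.07) in IB-like cells (27%), 3.17 (1.40 to 4.94) in OB-like cells (29.4%) and 1.44 (0.38 to 2.50) in uHF-like cells (62.5%), all of them called. The OB-like and uHF-like calls were lost without control mouse 2, where they were 2.41 (adjusted p = 0.0715) and 0.93 (adjusted p = 0.0522). From 0.142% and 0.0220% of its cells, the SG-like class gave 91.7% and 64.8% of the Cers4 counts of the control mice.

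Cers3, the enzyme of the barrier ceramides, followed the layers of the IFE. Control mice held 31.1 and 30.7 CPM in IFE basal-like, 69.4 and 65.5 in differentiated-like and 374 and 376 in keratinized-like cells. Each step was a rise, by 1.53 (1.33 to 1.73) on the log2 scale from basal-like to differentiated-like cells (68.1% of genes called) and by 3.14 (2.97 to 3.31) from there to keratinized-like cells (80.7%). It was 1.14 (0.88 to 1.41) higher in uHF-like and 2.27 lower in SG-like than in IFE basal-like cells (log2 fold change -2.27, -3.41 to -1.12), and 0 counts were found in the SG-like cells of control mice. The differentiated-like, Langerhans cell-like and uHF-like ranges overlapped with their neighbours (means 67.4, 57.8 and 51.1 CPM), and so did those of the IFE basal-like, IB-like, T cell-like and OB-like classes (30.9, 27.1, 22.3 and 15.9 CPM). Keratinized-like cells gave 68.9% and 74.5% of the Cers3 counts of control mice from 9.96% and 12.8% of their cells.

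Cers2 was highest in T cell-like and upper follicle cells. Its control means were 133 ± 0.509 CPM in T cell-like, 118 ± 16.3 in uHF-like and 90.5 ± 33.2 in Langerhans cell-like cells, then 28.3 ± 3.71 in IB-like, 18.4 ± 2.34 in IFE basal-like and 14.6 ± 5.27 in OB-like cells, with at most 4.43 CPM in any control mouse in the IFE differentiated-like, keratinized-like and SG-like classes. The ranges of the uHF-like and Langerhans cell-like classes overlapped, as did those of the IFE basal-like and OB-like classes. Within the IFE, Cers2 fell by 2.86 on the log2 scale (-3.10 to -2.61) from basal-like to differentiated-like cells, whereas it was 2.31 (1.80 to 2.82) higher in uHF-like and 2.33 (1.90 to 2.75) higher in T cell-like than in IFE basal-like cells. A further fall of 0.73 (-1.31 to -0.15) into keratinized-like cells lost its call without control mouse 2 (-0.70, adjusted p = 0.0732) or either CerS4epi-/- mouse (-0.62 and -0.68, adjusted p = 0.0884 and 0.0656), and was -0.11 without the 5% of cells with most counts.

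Cers5 and Cers6 were both lower toward the surface of the IFE. Cers5 was at 26.4 and 27.2 CPM in IFE basal-like, 14.1 and 14.8 in differentiated-like, 3.08 and 3.63 in keratinized-like and 15.3 and 8.35 in uHF-like cells of control mice. The steps through the IFE were -0.77 (-0.93 to -0.60) and -1.77 (-2.09 to -1.45). Over all 4 mice the uHF-like class was not called against the IFE basal-like class (-0.23, -0.76 to 0.29). This is not a control value, since the control levels of these classes did not overlap and were lower in uHF-like cells. In CerS4epi-/- mice the means were 28.6 CPM in IFE basal-like and 27.5 CPM in uHF-like cells. Langerhans cell-like cells were at 69.6 ± 19.4 CPM, and the SG-like value of 115 ± 163 rested on control mouse 1, since the 23692 counts of control mouse 2 in this class held 0 of Cers5 and allow up to 127 CPM. Over all 4 mice Cers5 was 4.06 (3.54 to 4.59) higher in SG-like than in IFE basal-like cells. The ranges overlapped between the SG-like and Langerhans cell-like and between the IFE differentiated-like and uHF-like classes, and no other neighbours in the order did. The rise of Cers5 in OB-like cells (0.69, 0.17 to 1.20) was lost without any one of the 4 mice (0.56 to 0.76), without the filter on low counts (0.57) and with stricter gates (0.11).

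Cers6 was highest in T cell-like cells (190 and 141 CPM, 0.80 over IFE basal-like cells, 0.46 to 1.14) and held 80.2 and 81.5 CPM in IFE basal-like, 67.9 and 60.1 in differentiated-like and 21.9 and 16.4 in keratinized-like cells. It was lower than in IFE basal-like cells by 1.27 on the log2 scale in the uHF-like class (-1.51 to -1.02), with larger differences in the OB-like (-2.05, -2.85 to -1.25), IB-like (-2.60, -3.48 to -1.71) and SG-like classes (-2.84, -3.63 to -2.04). The IFE differentiated-like difference of -0.16 (-0.29 to -0.04) was not called without control mouse 2 (-0.14), CerS4epi-/- mouse 1 (-0.18) or CerS4epi-/- mouse 2 (-0.13), and the step into keratinized-like cells was -1.25 (-1.41 to -1.09). Neighbours in the order that overlapped were the Langerhans cell-like and IFE basal-like classes, the uHF-like, IB-like and IFE keratinized-like classes, and the OB-like and SG-like classes. Barcodes of at most 100 counts held more Cers6 (197 to 264 CPM) than the cells of the same mice (49.0 to 57.4 CPM). The same was true of Cers2 and Cers5 in all 4 mice. Those barcodes held 114 and 127 CPM of Cers3 in control and 112 and 99.2 CPM in CerS4epi-/- mice. These values were above the genotype means of Cers3 in every class used but the IFE keratinized-like one. The part of free RNA in the levels of Cers2, Cers5 and Cers6 was not tested. Nor was its part in those of Cers3 outside keratinized-like cells, or of Cers4 outside the SG-like and T cell-like classes.

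Cers1 was at the edge of detection. The 4 mice together held 6.33 estimated counts of it in 10 entries of the tables, 52.6% of them as values that are not whole and so come from reads shared with other genes, and it passed no filter, so no comparison of Cers1 was made. The Langerhans cell-like, T cell-like, bulge-like and SG-like classes held 0 counts in every mouse.

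For each member the 3 genes whose control means over the 9 classes were most like its own were sought among 10670 genes of at least 5 CPM, by Pearson's r of log2(CPM + 1). They included Ttc9 and Casp14 for Cers3 (r = 0.991 and 0.974), of which Casp14 encodes the caspase of cornification, and were Ttc17, Sap18 and Hacl1 for Cers4 (0.972 to 0.958), Plekha7, Cbfa2t2 and Resf1 for Cers2 (0.909 to 0.889), Hccs, Fcf1 and Gmppa for Cers5 (0.967 to 0.963), and Poli, Fubp1 and Ints2 for Cers6 (0.979 to 0.971). The points are 9 classes that share 2 mice, and Cers2 had the loosest match.

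The members were then compared between genotypes in the 8 classes that had 20 cells or more in each of the mice. Of 25 tests of a member 2 passed, both in uHF-like cells and also by DESeq2, and 6 had an unadjusted p under 0.05. The background shares of genes called were 7.34% in IFE basal-like, 7.92% in differentiated-like, 13.6% in keratinized-like, 14.3% in uHF-like, 6.81% in OB-like and 0.0826% in T cell-like cells. In Langerhans cell-like cells 0% were called by edgeR, with 140 genes at an unadjusted p under 0.05, while DESeq2 called 3, and no member passed the filter in IB-like cells, where 2.61% were called. In the plot of genotype differences, the intervals of the remaining 23 tests show what these mice allow.

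**Figure D2:**
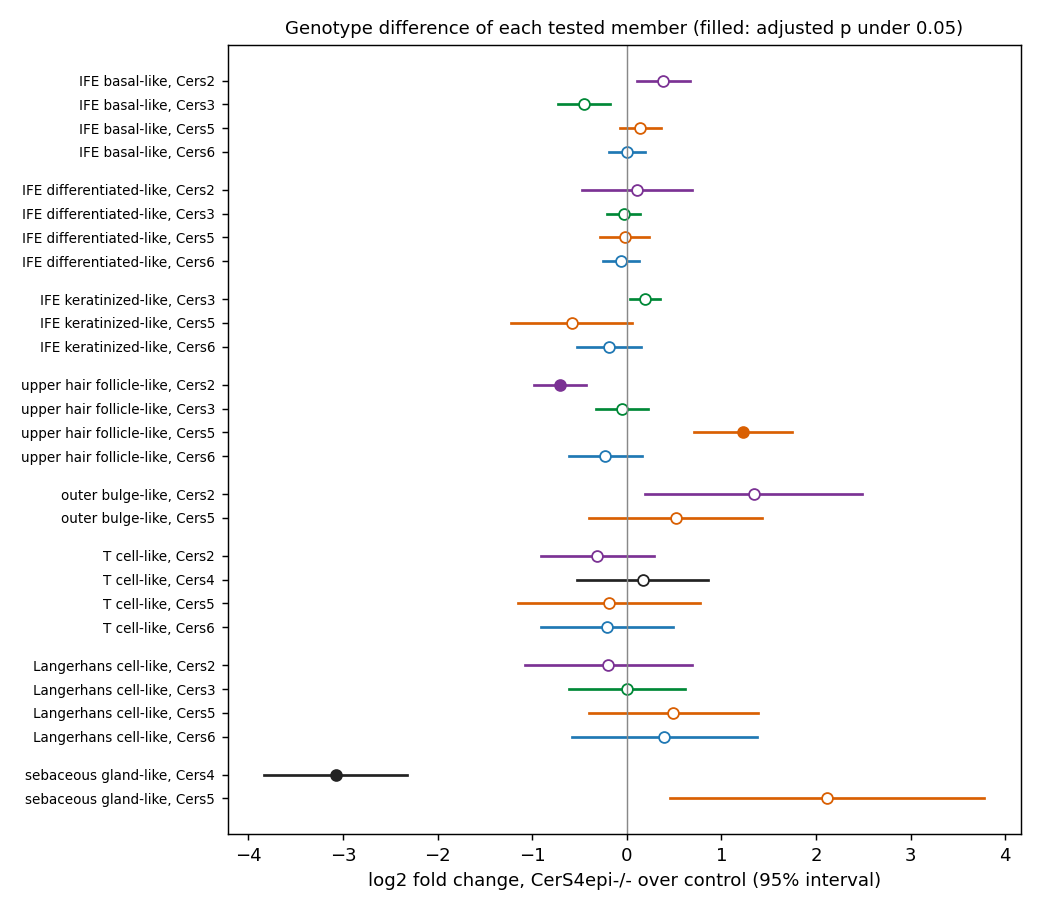
Log2 fold change of each tested member, CerS4epi-/- over control, with its 95% interval from edgeR, by class. Filled points passed an adjusted p of 0.05, which were Cers2 (-0.70) and Cers5 (1.23) in uHF-like and Cers4 (-3.08) in SG-like cells.

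In the IFE 0 of 11 tests of a member in its 3 classes were called by edgeR and 0 by DESeq2, with 3 at an unadjusted p under 0.05 in edgeR. In differentiated-like cells all 4 tested members lay within 0.11 of 0 on the log2 scale, and the interval of Cers3 ran from -0.20 to 0.14. IFE basal-like cells held 31.1 and 30.7 CPM of Cers3 in control against 23.9 and 19.5 CPM in CerS4epi-/- mice. These values did not overlap, yet the difference missed the threshold (-0.45, -0.73 to -0.18, adjusted p = 0.0576) and was called without CerS4epi-/- mouse 1 (-0.62, adjusted p = 0.00372) and without the filter on low counts (-0.44, adjusted p = 0.00528). With at most 10% mitochondrial counts per cell it was -0.16 (adjusted p = 0.630). Free RNA of Cers3, given above, was higher than the basal-like level of each mouse, and its part in the difference was not tested. Cers2 was at 20.1 and 16.8 against 24.3 and 22.2 CPM (0.39, 0.11 to 0.67, adjusted p = 0.0996). The uHF marker list, of a class in which Cers2 is higher, was at 391 and 326 CPM in the IFE basal-like cells of control and 700.5 and 1179 CPM in those of CerS4epi-/- mice. Its part in the Cers2 values of the IFE was not tested. Cers5 and Cers6 gave 0.14 (-0.08 to 0.37) and 0.00 (-0.18 to 0.19). Keratinized-like cells held 374 and 376 against 414 and 398 CPM of Cers3 (0.19, 0.04 to 0.35, adjusted p = 0.0972) and 3.08 and 3.63 against 1.97 and 2.31 CPM of Cers5 (-0.58, -1.22 to 0.06, adjusted p = 0.218).

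Differences of the genotype effect between a class and the IFE basal-like class were tested as interaction terms, of which 7 of 38 were called for a member. The background shares of genes called were 3.77% for the differentiated-like, 5.58% for the keratinized-like, 7.58% for the uHF-like, 3.81% for the OB-like, 1.25% for the IB-like, 0.368% for the T cell-like, 0.196% for the Langerhans cell-like and 0.472% for the SG-like class. Both terms between layers of the IFE were called for Cers3. They were not refitted at the limit of 10% mitochondrial counts, which made the basal-like difference of Cers3 smaller. The median mitochondrial share of IFE basal-like cells was 9.67% and 9.57% in control and 11.1% and 10.9% in CerS4epi-/- mice. In keratinized-like cells, where Cers3 is highest, the IFE keratinized marker list was at 56501 and 56595 against 64707 and 64822 CPM. The IFE differentiated list was lower there, at 63459 and 66860 against 59204 and 60424 CPM. The part of these shifts in the Cers3 values and terms was not tested. In the interaction term of edgeR the effect on Cers3 was 0.66 (0.40 to 0.91, adjusted p = 0.00568) higher in keratinized-like and 0.41 (0.18 to 0.64, adjusted p = 0.0482) higher in differentiated-like than in basal-like cells. Without control mouse 1 these were 0.63 and 0.46 with adjusted p = 0.0522 and 0.0556, and the second was 0.38 without control mouse 2 and 0.31 without CerS4epi-/- mouse 2, neither called. When the 3 classes were added up, 1 of 5 members was called (background 11.5%). Cers2 was at 7.51 and 5.84 against 9.79 and 9.51 CPM over all IFE-like cells (0.55, 0.23 to 0.86, adjusted p = 0.0428). The basal-like class, where Cers2 is highest in the IFE, gave 29.9% and 27.6% of all counts of the IFE-like cells in control and 35.7% and 37.8% in CerS4epi-/- mice, and its part in the difference was not tested. The call was lost without control mouse 2 (0.38, adjusted p = 0.153), CerS4epi-/- mouse 1 (0.51, adjusted p = 0.123) or CerS4epi-/- mouse 2 (0.58, adjusted p = 0.0989), by DESeq2 (0.54, adjusted p = 0.0674), and under 4 other choices of cells, of which at most 10% mitochondrial counts gave 0.20 (-0.23 to 0.63). In a sum over classes a change in the number of cells of a type and a change in RNA per cell cannot be told apart.

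In uHF-like cells 2 of 4 tested members changed, in opposite directions, with 14.3% of all genes called. Cers5 was at 15.3 and 8.35 CPM in control and at 27.1 and 27.8 CPM in CerS4epi-/- mice. Both CerS4epi-/- mice were above both control mice, and the rise was 1.23 on the log2 scale (SE 0.23, 0.71 to 1.74, adjusted p = 0.00644). Barcodes of at most 100 counts held 33.2 and 42.3 CPM of Cers5 in control and 56.7 and 42.4 CPM in CerS4epi-/- mice. Each uHF-like value of Cers5 was under that of its own mouse, and the part of free RNA in the rise was not tested. Cers2 was at 130 and 107 CPM in control and at 66.6 and 73.1 CPM in CerS4epi-/- mice, again without overlap, and fell by 0.70 on the log2 scale (SE 0.12, -0.98 to -0.43, adjusted p = 0.00451). Cers3 (-0.05, -0.32 to 0.23) and Cers6 (-0.23, -0.62 to 0.16) were not called, and Cers4 with 4 to 14.5 counts per mouse passed no filter. Both were also called without each mouse, under the same assumption, where Cers5 ranged from 0.88 to 1.78 and Cers2 from -0.85 to -0.55.

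The differences in the uHF were also seen per cell. Cers5 was detected in 4.19% and 2.76% of the control and 10.47% and 10.01% of the CerS4epi-/- uHF-like cells, and in 1.97% and 1.04% against 3.24% and 3.25% after every cell was thinned to 1200 counts, which left out 5 control and 7 CerS4epi-/- cells. For Cers2 the shares were 27.3% and 24.0% against 19.4% and 21.3%, and 12.4% and 9.90% against 6.81% and 6.92% when thinned. The median depth of these cells was 2717 and 2415 counts for control against 3485 and 3149.5 for CerS4epi-/- mice, so the shares before thinning favour CerS4epi-/- mice. In IFE keratinized-like cells, with medians of 10261 to 12635 counts, thinned shares were at most 0.344% for Cers2 and 0.237% for Cers5.

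The make-up of the uHF-like class moved with the genotype as well. Cells with more counts of the IFE differentiated than of the IFE basal marker list, called suprabasal here, were 88.2% and 89.8% of the class in control and 70.0% and 69.3% in CerS4epi-/- mice. The class was therefore split along this line after the data were seen, and the values are in the plot of basal and suprabasal cells. Suprabasal uHF-like cells held 12.2 and 6.92 against 23.1 and 25.4 CPM of Cers5 (1.37, 0.81 to 1.94, adjusted p = 0.00724) and 142 and 115 against 81.0 and 82.2 CPM of Cers2 (-0.57, -0.85 to -0.30, adjusted p = 0.0156), with 11% of all genes called. Neither genotype overlapped the other for either gene. The Cers5 call was lost without CerS4epi-/- mouse 1 (1.46, adjusted p = 0.0897) or mouse 2 (1.31, adjusted p = 0.134), and that of Cers2 without either of these mice (-0.55 and -0.58, adjusted p = 0.187 and 0.199) or control mouse 1 (-0.41, adjusted p = 0.114). Basal uHF-like cells held 38.2 and 21.9 against 36.4 and 33.0 CPM of Cers5 (0.24, -0.57 to 1.06) and 38.2 and 32.8 against 33.1 and 53.5 CPM of Cers2 (0.37, -0.53 to 1.27), where 2.73% of genes were called, and their control values rest on 4 to 11 counts each.

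**Figure D3:**
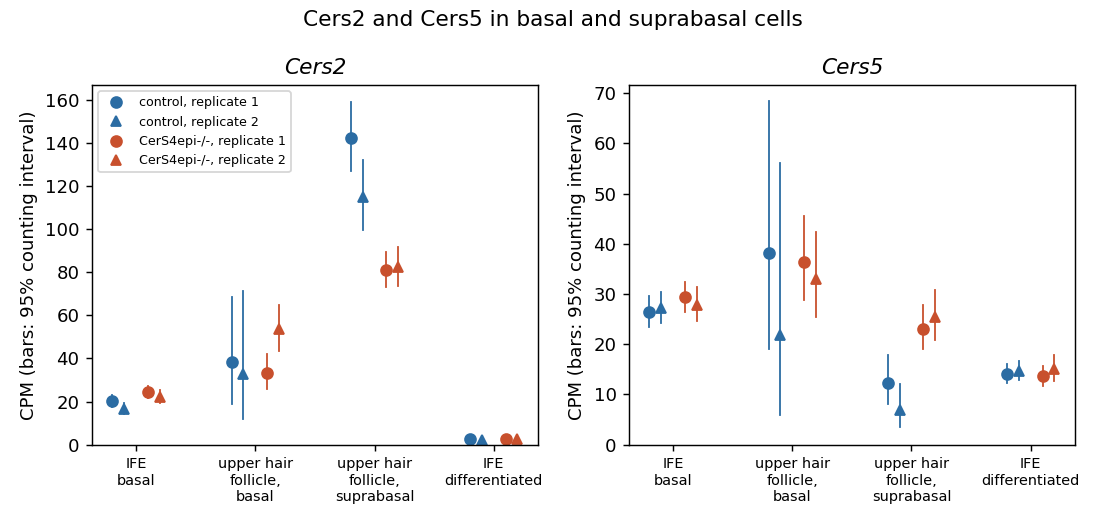
CPM of Cers2 and Cers5 in IFE basal-like, basal uHF-like, suprabasal uHF-like and IFE differentiated-like cells, 1 point per mouse with bars for the 95% counting interval. In suprabasal uHF-like cells Cers5 is at 12.2 and 6.92 CPM in control and 23.1 and 25.4 CPM in CerS4epi-/- mice, and Cers2 is at 142 and 115 against 81.0 and 82.2 CPM.

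Marker lists of the class and of neighbouring cell types also differed in uHF-like cells. The 7 genes of the uHF list itself added up to 33346 and 28181 CPM in control and 41225 and 47926 CPM in CerS4epi-/- mice. The 9 genes of the SG list added up to 68.8 and 86.6 CPM in control and 143 and 167 CPM in CerS4epi-/- mice, with 2 and 3 against 1 and 1 of them at 0, and the 5 genes of the IB list to 439 and 362 against 74.9 and 85.7 CPM. The 8 genes of the IFE basal list were at 2345 and 2494 against 4606 and 4619 CPM. The 6 genes of the IFE differentiated list were at 21330 and 25770 against 13907 and 13705 CPM and the 10 genes of the IFE keratinized list at 1414 and 1478 against 727 and 728 CPM. The part of these shifts in the values of Cers2 and Cers5 was not tested. Against IFE basal-like cells, the genotype effect in uHF-like cells was 1.08 (0.57 to 1.59, adjusted p = 0.00778) higher for Cers5 and lower for Cers2, with a value of -1.09 (-1.41 to -0.77, adjusted p = 9.56e-05). The former was 0.72 (adjusted p = 0.173) without control mouse 2.

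In the SG-like cells that lose most Cers4, Cers5 was at 230 and 0 CPM in control and at 1136 and 409 CPM in CerS4epi-/- mice. Both CerS4epi-/- mice were above both control mice, but the spread between mice was wide and the difference was not called (2.12, 0.46 to 3.78, adjusted p = 0.409). It was called without control mouse 1 (10.94, a fitted value against a group at 0 and no bound), without control mouse 2 (1.66, adjusted p = 6.43e-07) and without the filter on low counts (2.24, adjusted p = 0.000547). In the interaction term against IFE basal-like cells the effect on Cers5 was 1.93 (1.03 to 2.83, adjusted p = 0.00835) higher and that on Cers4 lower (-3.56, -4.74 to -2.38, adjusted p = 3.29e-06). Without CerS4epi-/- mouse 1 they were 1.53 and -3.68 and without mouse 2 they were 2.97 and -3.44, none of them called. Cers2 was at 4.43 and 0 against 29.3 and 45.5 CPM, from 1 and 0 against 14 and 20 counts, and the other members held at most 5 counts in any mouse.

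The Cers5 counts of the SG-like class came from few cells, as the plot of both genes in each cell shows. Cells with at least 10 counts of Cers5, a limit chosen after the values were seen, were 1 of 12 and 0 of 2 in control and 6 of 27 and 4 of 32 in CerS4epi-/- mice. They held 86.5% of the SG-like Cers5 counts in control mouse 1 and 97.4% and 93.3% in the CerS4epi-/- mice. The 10 such cells of CerS4epi-/- mice had 12 to 155 counts of Cers5 and 0 to 11 of Cers4 (median 0.5), against 0 to 7 of Cers5 and 0 to 27 of Cers4 (median 5) in the other 49. Their Cers4 level was 97.7 CPM against 427 CPM in the others, and the ranges of counts overlapped. The 1 control cell over the limit had 45 counts of Cers5 and 31 of Cers4, and the other 13 control cells had at most 2 of Cers5 and 6 to 80 of Cers4 (median 61). These are values of single cells with no test.

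**Figure D4:**
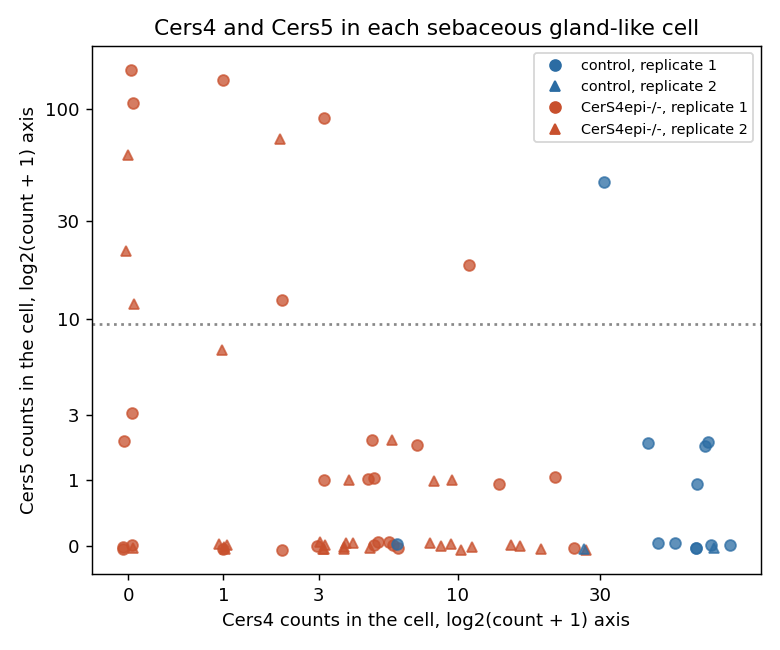
Counts of Cers4 (horizontal) and Cers5 (vertical) in each of the 73 SG-like cells on log2(count + 1) axes, with points shifted slightly at random so that they can be told apart and a dotted line under 10 counts of Cers5. Above the line lie 10 cells of CerS4epi-/- mice, with 0 to 11 counts of Cers4, and 1 control cell.

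The cells of high Cers5 also differed in genes of the SG list. In CerS4epi-/- mice they held 2356 CPM of Awat2, a wax synthase, against 315 CPM in the other SG-like cells, and 8236 against 3552 CPM of Far2, which makes fatty alcohols. They were lower in Soat1, which esterifies cholesterol (561 against 2813 CPM), in Scd1 (5612 against 13391 CPM) and in Mgst1 (1461 against 3477 CPM). These 5 differences had the same direction in each of the 2 mice. Scd3, a fatty acid desaturase gene, went either way, with 610 against 6.06 CPM in mouse 1, most of it from 2 cells. In mouse 2 the values were 0 against 5.09 CPM. Cidea (864 against 588 CPM), Mc5r (61.7 against 49.8 CPM) and Pparg (298 against 384 CPM) differed less. The single control cell of high Cers5 had 10581 CPM of Far2 against 2088 CPM in the other control cells. The 9 genes were in the gate of the class, so the split within it is a description.

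Over all cells Cers5 was the 1 of 5 tested members called, with 14.3% of all genes called. It was at 16.6 and 14.99 CPM in control and 30.2 and 24.4 CPM in CerS4epi-/- mice (0.79, 0.50 to 1.09, adjusted p = 0.0122). SG-like cells gave 7.81% and 0% of its counts in control and 37.5% and 21.1% in CerS4epi-/- mice, from 0.142% and 0.0220% against 0.299% and 0.423% of the cells. Without them the level was 15.4 and 14.997 against 19.1 and 19.5 CPM, a rise of 0.35 (0.17 to 0.53, adjusted p = 0.0258, with 15.7% of genes called) that was not called without any one of the 4 mice (0.34 to 0.35). The Cers4 level over all cells was 17.4 and 3.37 CPM in control and 4.21 and 7.73 CPM in CerS4epi-/- mice, which overlap (-0.81, -2.45 to 0.84). This value turned to 0.78 (0.05 to 1.52, adjusted p = 0.158) without control mouse 1, which held 12 of the 14 control SG-like cells, and was -1.55 (adjusted p = 0.0124) without control mouse 2.

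T cells carry the floxed allele in both genotypes and are no target of Cre under the keratin-14 promoter. Cers4 was at 104 and 70.3 CPM in the T cell-like cells of control and at 92.8 and 109 CPM in those of CerS4epi-/- mice, from 10 to 39 counts. These values overlapped (0.17, -0.52 to 0.86). It was detected in 12.3% to 24.1% of T cell-like cells per mouse, at medians of 1541 to 1906 counts, and in 0 of 229 Langerhans cell-like cells. In OB-like cells Cers2 was at 18.3 and 10.9 against 35.8 and 39.6 CPM (1.34, 0.19 to 2.49, adjusted p = 0.167), from 4 and 2 counts in control mice. Suprabasal cells, in the sense used for the uHF, were 67.3% and 75.0% of the OB-like class in control and 31.3% and 15.8% in CerS4epi-/- mice. Of the 247 OB-like cells, 221 lay in Leiden clusters of uHF-like cells. The part of this make-up in the OB-like values was not tested. Cers6 in IB-like cells held 7 and 3 counts in control and 0 and 0 in CerS4epi-/- mice, where 0 counts allow up to 18.4 and 18.1 CPM against 29.9 and 18.5 CPM measured in control.

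The other genes of ceramide metabolism, a list of 50 measured genes from the making of the sphingoid base to the breakdown of ceramide, were counted in the same fits, with the share called given beside that of all genes. In uHF-like cells 8 rose and 12 fell of 47 tested (42.6%, against 14.3% of all genes), and the median of the list was -0.04 on the log2 scale, beside 0.01 for all genes. The largest were Degs2, which makes phytoceramides and rose from 11.7 and 6.26 to 34.0 and 57.4 CPM (2.35, 1.58 to 3.13, adjusted p = 0.00169), the ceramidase gene Acer2 (8.91 and 9.91 to 31.1 and 29.8 CPM, 1.76, adjusted p = 0.000282) and Sdr9c7, an enzyme of acylceramide oxidation, which fell from 81.4 and 83.5 to 28.4 and 27.1 CPM (-1.50, adjusted p = 5.35e-05). Of 7 tested genes of barrier (acyl)ceramide synthesis and export 4 were called there and fell, namely Alox12b, Aloxe3, Cyp4f39 and Sdr9c7. The IFE differentiated and IFE keratinized marker lists were lower in these cells too, by the values given above, and the part of that shift was not tested. In IFE keratinized-like cells 4 of 7 genes of that step, Abca12, Aloxe3, Pnpla1 and Sdr9c7, rose. There the IFE keratinized marker list was at 56501 and 56595 CPM in control and 64707 and 64822 CPM in CerS4epi-/- mice. The IFE differentiated list was at 63459 and 66860 against 59204 and 60424 CPM, and the part of these shifts in the calls was not tested either. The whole list there had 13 higher and 3 lower of 46 (34.8% against 13.6%, median 0.09 against -0.02), led by Acsl4 (0.308 and 0.644 to 1.32 and 1.77 CPM, 1.67), the elongase gene Elovl7 (49.9 and 52.1 to 95.3 and 87.9 CPM, 0.93) and the ceramidase gene Acer3 (56.8 and 68.6 to 34.9 and 38.2 CPM, -0.71).

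**Figure D5:**
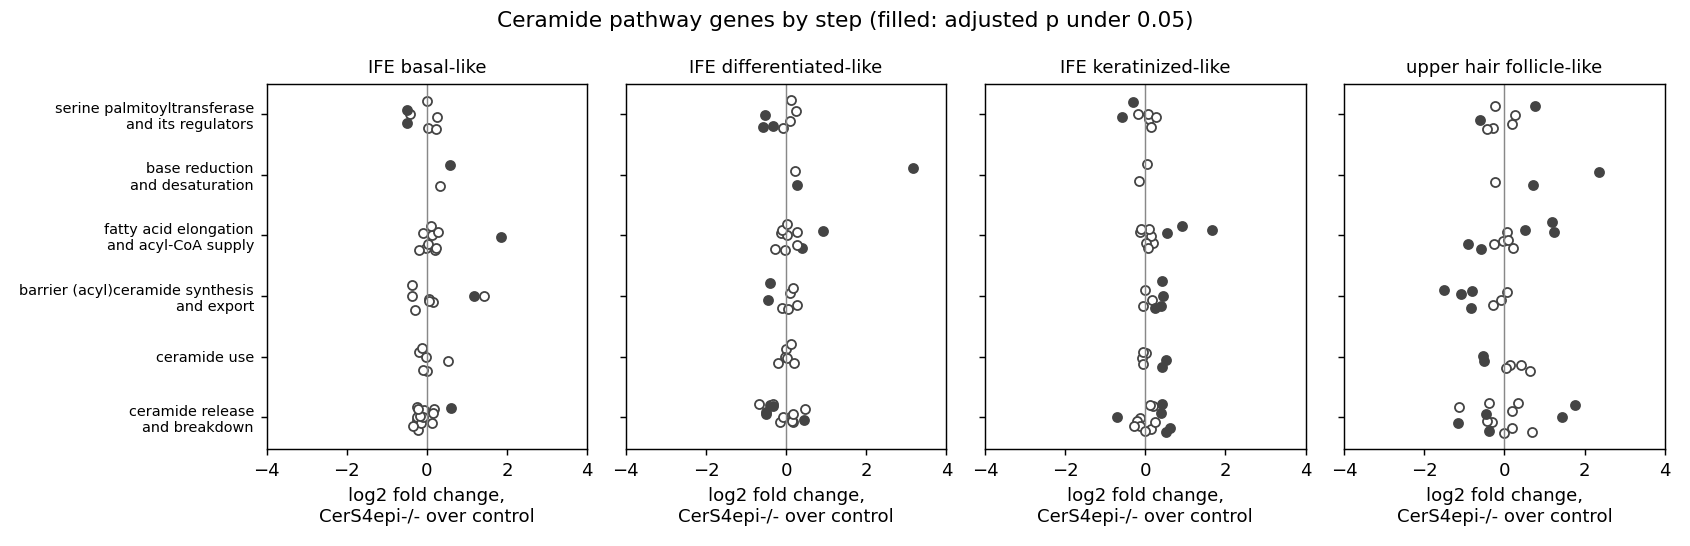
Log2 fold change, CerS4epi-/- over control, of the genes of ceramide metabolism by step in 4 classes, with filled points at an adjusted p under 0.05. The list is called in both directions, with 8 higher and 12 lower of 47 in uHF-like cells and 13 higher and 3 lower of 46 in IFE keratinized-like cells.

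IFE basal-like cells had 4 of 47 higher and 2 lower (12.8% against 7.34%), with the acyl-CoA synthetase gene Acsl4 at 14.4 and 8.88 against 32.7 and 48.5 CPM (1.84, 1.31 to 2.38), Pnpla1, which makes acylceramides, at 2.33 and 2.40 against 4.41 and 6.02 CPM (1.18) and the sphingomyelinase gene Smpd2 at 14.8 and 14.2 against 21.9 and 20.8 CPM (0.61). Differentiated-like cells had 5 of 47 higher and 9 lower (29.8% against 7.92%). Degs2 was at 0.456 and 0.542 against 2.702 and 6.90 CPM there (3.16, 2.01 to 4.31), Acsl4 gained 0.93, and Sptlc3, a subunit of the enzyme that starts the pathway, fell from 261 and 274 to 176 and 183 CPM (-0.58). Of the lists in smaller classes, 2 rose and 1 fell of 33 in OB-like cells (9.09% against 6.81%, Acer2 2.04, Degs1 1.60 and Sptlc3 -2.67), 1 fell of 21 in IB-like cells (4.76% against 2.61%, Elovl1, -1.78), and edgeR called 0 of 31 in T cell-like and 0 of 27 in Langerhans cell-like cells, with 7 and 1 at an unadjusted p under 0.05 and 0 and 0 called by DESeq2. Over all cells 11 rose and 8 fell of 50 (38% against 14.3%), led by Elovl3, an elongase gene of the sebaceous gland (3.96 and 0.976 to 29.6 and 40.1 CPM, 3.83), Degs2 (3.43) and Acsl4 (1.90), and over all IFE-like cells 10 rose and 7 fell of 48 (35.4% against 11.5%), led by Degs2 (2.91), Acsl4 (1.87) and Sptlc3 (-0.74). SG-like cells numbered 12 and 2 in control and 27 and 32 in CerS4epi-/- mice, and uHF-like cells 763 and 579 against 1576 and 1448. The basal-like share of the IFE-like counts and the uHF marker list in IFE basal-like cells were also higher, by the values given above. The part of these shifts in the sums over classes, Elovl3 and Degs2 included, was not tested. The genotypes did not overlap for any gene whose 4 values are given here. These genes were chosen among those called for their large change, so this nearly follows from the choice and is no further evidence.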

How the data were processed

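The authors trimmed reads with fastp 0.23.2 and counted them with STAR 2.7.10a (STARsolo) on GRCm39 and Gencode vM29, introns included. They deposited, per mouse, estimated counts for every gene in every barcode after merging UMIs, with reads of several genes shared by expectation maximization, not normalized and with no barcode removed. Everything else was computed here. Sums of counts over the cells of a class and mouse were rounded, and CPM are on the sums before rounding.

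A gate asked for at least 2 counts of 2 to 4 markers of a class, and doublets were not removed. Genes that passed filterByExpr were fitted with TMM factors and the quasi-likelihood test of edgeR 4.0.16 (R 4.3.3). P-values were adjusted by Benjamini-Hochberg over all genes, with a threshold of 0.05. The code was also run on simulated counts with a single fixed dispersion and no pool effect, which cannot speak for the spread of these mice. Intervals are 95% ones, and those on single libraries cover counting error only. With 2 mice per genotype an exact permutation test cannot go under p = 0.333. P-values set a difference against the spread between these mice, with dispersions moderated over genes. Between genotypes they take in no spread between pools, since genotype and pool cannot be told apart. Alternatives were DESeq2 1.42.0, its size factors, no filter, the replicate number as a block, other limits on cells, stricter gates, Leiden clusters and leaving out each mouse.

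The named genes were the 6 members, the 3 called pathway genes of largest absolute change per comparison and the 3 genes of most like pattern, of which 1 is not reported here. Members, lists and tests were chosen with earlier results of these data known.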

Additional observations from a re-analysis of the deposited data

Results flagged for a closer look

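The genotype effect, CerS4epi-/- over control, differed between IFE basal-like cells and another class for 7 of 38 tests of a member, in interaction terms of edgeR's quasi-likelihood test with adjusted p-values. For Cers3 the difference was 0.41 (adjusted p = 0.0482) in IFE differentiated-like and 0.66 (adjusted p = 0.00568) in keratinized-like cells. For Cers2 it was -1.09 (adjusted p = 9.56e-05) and for Cers5 1.08 (adjusted p = 0.00778) in uHF-like cells. In SG-like cells it was -3.56 (adjusted p = 3.29e-06) for Cers4 and 1.93 (adjusted p = 0.00835) for Cers5. For Cers6 in IB-like cells it was -10.14 (adjusted p = 0.0363), a fitted value against 0 counts in both CerS4epi-/- mice, which is no bound, and it was not called without any one of the 4 mice.

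Outside the cells, barcodes of at most 100 counts of CerS4epi-/- mice held 9.42 and 11.03 CPM of Cers4, above 6.27 and 8.05 CPM in control mice. These values rest on 16 and 13 counts against 5 and 19 counts. For Cers5 such barcodes held 56.7 and 42.4 CPM in CerS4epi-/- mice, from 96.3 and 50 counts. Control mice were at 33.2 and 42.3 CPM, from 26.5 and 99.8 counts, so that the values of 42.4 and 42.3 CPM were almost equal. These levels were not tested between genotypes.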

How the results depend on the processing

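The 2 member calls over 8 classes became 4 without the filter on low counts and 4 with the replicate block, and 2 to 3 without one mouse. Over all cells 1 call became 2 with DESeq2, without the filter, or without the 5% of cells with most counts (1 to 2 without one mouse). Over all IFE-like cells 1 call became 0 with DESeq2, at least 2000 counts, at most 10% mitochondrial counts, without the top 5% or with stricter gates (0 to 1 without one mouse), where Cers2 was 0.54, 0.55, 0.20, 0.53 and 0.49 and 0.38 to 0.72 without one mouse. Between classes 24 calls became 19 to 23, interaction calls 3 to 5, and the uHF-like Cers5 interaction was 0.72 to 1.66, without one mouse. Thinning gave mean shares with Cers5 of 1.51% and 3.25% and with Cers2 of 11.1% and 6.86% in control and CerS4epi-/- uHF-like cells, and with Cers4 of 30.2% in CerS4epi-/- SG-like cells.

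Uncalled values changed sign in IFE differentiated-like cells for Cers2 (-0.17 at most 10% mitochondrial counts, -0.014 without the top 5%, -0.0019 with stricter gates, -0.16 in Leiden clusters), Cers3 (0.014 at most 10% mitochondrial counts, 0.046 in Leiden clusters) and Cers5 (0.0042 at 2000 counts, 0.014 with stricter gates), and in uHF-like cells for Cers3 (0.17 at most 10% mitochondrial counts). Without one mouse, the ranges that cross 0 were -0.049 to 0.065 for Cers6 in IFE basal-like, -0.15 to 0.022 for Cers6, -0.075 to 0.0020 for Cers3 and -0.076 to 0.040 for Cers5 in differentiated-like, -0.38 to 0.021 for Cers6 in keratinized-like, -0.13 to 0.019 for Cers3 in uHF-like, -0.030 to 0.51 for Cers4 in T cell-like and -1.55 to 0.78 for Cers4 over all cells, and in the split uHF-like class -0.011 to 0.70 for Cers2 and -0.020 to 0.80 for Cers5 (basal) and -0.46 to 0.078 for Cers6 (suprabasal). The cause was not tested.

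Same-numbered mice share only a number: their deviations correlated at 0.049 over all cells, 0.229 in IFE-like, 0.258 in IFE basal-like and -0.123 in uHF-like cells. The replicate block moved the genes called in uHF-like cells from 1607 to 1545, and a crossed pairing, added after seeing the data, to 2308. With the block, Cers3 in IFE basal-like cells was called (adjusted p = 0.00532). Leiden clusters gave no outer bulge class. With 14 control SG-like cells, 12 of them from one mouse, depth limits all statements on SG-like cells.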
